A study of Danio rerio with 9 samples.

Results

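Integrins are cell surface receptors made of 1 alpha and 1 beta subunit, and they bind extracellular matrix or counter-receptors on other cells. The alpha subunit largely sets what is bound, and the beta subunit carries the tail that the adaptors talin and kindlin engage inside the cell. In blood, integrins hold stem and progenitor cells in their niche, and the beta 2 integrins of leukocytes serve adhesion and migration. The genes described here were all genes whose symbol begins with itga, itgb, itge or itgm followed by a digit or letter, leaving out itga2b and itgb3b. The pattern picked 36 of 24201 genes, of which 34 were members after itga2b and itgb3b were left out. Of the 34, 2 are not subunits: itgb1bp1 encodes a protein that binds an integrin tail, and itgbl1 a secreted integrin beta-like protein. The other 32 are subunit genes, and 31 of them had UMIs (unique molecular identifiers, counts of captured transcript molecules), 20 alpha and 11 beta. The subunit with none is a further copy named itga6a in the gene list of the 2.5 dpf libraries only.

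The libraries were 10x Genomics 3' single-cell RNA libraries of zebrafish (EK strain) cells sorted for a low cd41:GFP signal, a reporter of the itga2b promoter that is dim in blood stem cells and bright in thrombocytes. The runx1-/- animals carried the del8, hg96 allele of runx1, a transcription factor needed for blood stem cell formation, and the tg(cd41:GFP) transgene, and were taken at 2.5, 6, 10 and 16 days post fertilisation (dpf), with separate libraries at 16 dpf of animals called bloodless and recovered. The WT animals carried the same tg(cd41:GFP) transgene and were taken at the same ages, so both groups share the reporter. Each of the 5 runx1-/- and 4 WT libraries stands alone for its genotype, age and state, and the number of animals pooled in each is not given in the sources used here.

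In all, 28875 of 30917 cell barcodes were kept, between 762 and 7185 per library, and the median per kept cell lay between 4261 and 13387.5 UMIs. Barcodes shared between any pair of libraries numbered at most 22. Counts of runx1 itself do not check the genotype, because a 3' tag can lie outside a small deletion: summed over all cells, runx1 had 0.268 to 10.0 UMIs per 1000000 in runx1-/- libraries and 0.0372 to 1.98 in WT libraries.

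Cells were placed in 15 classes by panels of marker genes that hold no integrin. A class needed at least 3 panel markers with a UMI and a lead of 2 markers over every other class, and classes are called HSPC-like (hematopoietic stem and progenitor), erythroid-like and so on after their panel. There were 12, 133, 1009, 417 and 616 HSPC-like cells in the runx1-/- libraries at 2.5, 6 and 10 dpf and in the bloodless and recovered libraries at 16 dpf, against 471, 436, 507 and 488 in the WT libraries at 2.5, 6, 10 and 16 dpf. Levels below are counts per 1000000 UMIs summed over the cells of a class in 1 library (CPM), and are given for classes with at least 20 cells. Neutrophil-like cells numbered 0 and 2 in the runx1-/- libraries at 2.5 and 6 dpf and macrophage-like cells 1 and 8 at 6 and 10 dpf, so those combinations have no level. The thrombocyte-like class never reached 20 cells in a library. It held the platelet chain gene left out of the members, with 30 UMIs of itga2b in 17 cells of the WT 10 dpf library and 16 in 9 cells at 6 dpf. Between 28.5% and 62.3% of cells per library met no class.

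By the median over libraries of both genotypes, itgb2 led the subunits in neutrophil-like and macrophage-like cells and itga4 in erythroid-like cells. A mix of itga4, itgb2, itga1, itgae.2 and itgb1b led in HSPC-like cells. The lead of itgb2 did not hold in every library: in the WT library at 16 dpf, itgae.2 lay above itgb2 in neutrophil-like and macrophage-like cells. Classes were compared in 1 edgeR quasi-likelihood fit with library as a block. Each of HSPC-like, erythroid-like, neutrophil-like and macrophage-like cells was set against the equal-weight mean of the other 3. Benjamini-Hochberg adjustment was over all 11690 genes tested, with a threshold of 0.05. The fit held 44 sums of 6 classes. Epidermis-like and neuron-like sums entered its filter and its estimate of spread, but no comparison. Genes high in epidermis-like cells, among them itgb4 and itga6b, could thus be tested through those cells. Of 22 members tested there, 9 differed for the HSPC-like class, 7 higher and 2 lower, where 33.8% of all genes differed, 25% higher and 8.75% lower. For the erythroid-like class 13 of 22 differed, 1 higher and 12 lower, against 60.2% of all genes, 34.6% higher and 25.6% lower. Neutrophil-like cells had 11 of 22, 9 higher and 2 lower, against 43.3% of all genes, 19.2% higher and 24.1% lower. Macrophage-like cells had 9 of 22, 8 higher and 1 lower, against 33.2% of all genes, 16.7% higher and 16.4% lower. In each of the 4 comparisons the share of members called in either direction was near that of all genes. The split by direction was not always near. Members leaned lower than all genes in erythroid-like cells, and higher in neutrophil-like and macrophage-like cells, a lean that was not tested. The genes itgb2, itgb7, itgae.1, itgae.2 and itgam were higher in both neutrophil-like and macrophage-like cells. In erythroid-like cells the median log2 difference of members was -1.94, against 0.15 for all genes.

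**Figure D1:**
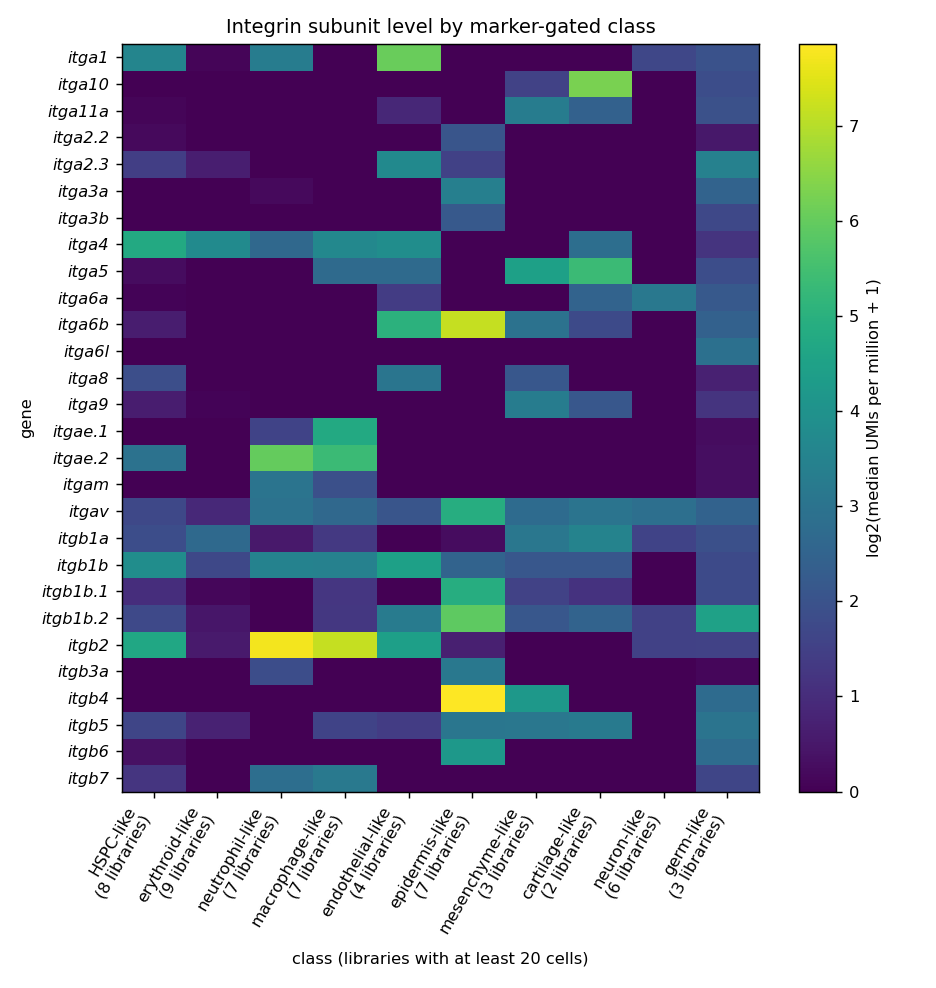
Median level of each integrin subunit gene (rows; genes reaching a median of 2 CPM in at least 1 class) in each marker-gated class (columns), over libraries with at least 20 cells of the class; colour is log2(median CPM + 1). The highest values in the blood classes are those of itgb2 in neutrophil-like and macrophage-like cells, and itgb4 and itga6b stand out in epidermis-like cells.

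Among alpha subunits, itga1 encodes a collagen and laminin receptor chain. Its HSPC-like level exceeded the mean of the other blood classes by 4.13 on the log2 scale (SE 0.343, adjusted p = 2.77e-12, edgeR's quasi-likelihood test). In neutrophil-like cells itga1 had 6.08 to 9.38 CPM in runx1-/- and 0 to 9.82 in WT libraries. The WT HSPC-like levels given below lay within that WT range, and the runx1-/- HSPC-like levels lay above both ranges. The fitted excess of itga6b was larger and less precise, at 5.0 (SE 1.04, adjusted p = 0.000441, edgeR). Most itga6b UMIs in HSPC-like cells came from runx1-/- libraries, with 98 in the 4 runx1-/- and 7 in the 4 WT libraries. The HSPC-like itga6b level was 0 to 8.56 CPM in runx1-/- and 0 to 0.890 in WT libraries, so the excess does not describe WT cells alone. The itga1 level was also higher in neutrophil-like cells (2.78, SE 0.412, adjusted p = 5.89e-07, edgeR) and lower in erythroid-like and macrophage-like cells. Of all itga1 UMIs in the kept cells, 32.4% lay in HSPC-like cells and 57.7% in cells of no class. The alpha 4 gene itga4, whose product pairs with beta 1 to bind fibronectin and vascular cell adhesion molecule, was higher in erythroid-like cells (1.12, SE 0.292, adjusted p = 0.00105, edgeR) and held 39.8% of its UMIs there. In HSPC-like cells itga4 was higher than the mean of the other classes by 0.89 (SE 0.311, adjusted p = 0.0235, edgeR). That call was lost in 9 of 12 alternatives. By the levels given below, the order of HSPC-like and erythroid-like cells changed with genotype. In WT the HSPC-like itga4 level lay below the erythroid-like one at every age. In runx1-/- it lay above in every library with both levels. So these pooled differences do not describe each genotype alone. The itgae genes resemble mammalian CD103, the chain that binds E-cadherin on epithelium. The copy itgae.1 was most abundant in macrophage-like cells, at 26.5 to 39.3 CPM in the 3 runx1-/- libraries and 9.81 to 32.2 in the 4 WT libraries, with a log2 difference from the other classes of 5.90 (SE 0.489, adjusted p = 2.07e-11, edgeR). The copy itgae.2 was highest in neutrophil-like and macrophage-like cells (3.26 and 2.86 above the other classes, adjusted p = 9.06e-07 and 5.67e-05, edgeR). The itgam gene, whose mammalian counterpart forms complement receptor 3 with beta 2, was highest in neutrophil-like cells, at 7.22 to 21.3 in runx1-/- libraries and 2.45 to 8.53 CPM in WT libraries. It had 0 UMIs in HSPC-like cells of every library, with exact 95% Poisson upper limits of 0.451 to 4.15 CPM in the 4 runx1-/- libraries with a level and 0.547 to 0.647 in the 4 WT libraries.

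Among beta subunits, itgb2, the common chain of leukocyte integrins, exceeded the other classes by 4.03 in neutrophil-like (SE 0.340, adjusted p = 7.10e-13) and 2.58 in macrophage-like cells (SE 0.371, adjusted p = 4.26e-07), both by edgeR. It fell by 6.66 in erythroid-like cells (adjusted p = 6.98e-14, edgeR). The beta 7 gene itgb7, whose mammalian product pairs with alpha E and alpha 4, was higher in macrophage-like (3.30, adjusted p = 1.29e-08, edgeR) and neutrophil-like cells (2.83, adjusted p = 7.75e-08, edgeR). Its level was low, at 2.89 to 15.2 CPM in runx1-/- and 1.40 to 9.61 in WT neutrophil-like cells. The genes itgb1b, itgb1b.1 and itgb1b.2, and the numbered genes of itgae and itga2, are copies by name, and how reads were divided between such copies was not checked here, so levels of single copies are uncertain.

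The main genotype comparison asked how subunit levels per class differ without runx1. Within HSPC-like cells, runx1-/- libraries held far less itgae.2 than WT libraries of the same age and more itga1, itga4, itga8 and itga2.3. The itga6b level was higher in 3 of 4 runx1-/- libraries, with 0 UMIs in both genotypes at 6 dpf. Age and genotype were fitted together with edgeR's quasi-likelihood test over 4 runx1-/- and 3 WT libraries at 6, 10 and 16 dpf, ages standing in for replicates. Of 16 members tested, 6 differed, 5 higher and 1 lower, against 11.3% of the 10481 genes tested, 6.37% higher and 4.97% lower. The members itga2.3 and itga6b passed the expression filter only through the runx1-/- libraries, and itgae.2 only through the WT libraries. Their calls, and the counts and median that hold them, are therefore description and no separate support. The median log2 difference of the 16 was 0.75, against -0.0023 over all genes. No level can be given for the runx1-/- library at 2.5 dpf, which held 12 HSPC-like cells.

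The itgae.2 level in HSPC-like cells was 0, 0.122, 0.309 and 1.01 CPM in the runx1-/- libraries at 6 and 10 dpf, bloodless and recovered, against 22.1, 33.4, 30.7 and 12.6 in WT at 2.5, 6, 10 and 16 dpf. All runx1-/- libraries lay below all WT libraries. Here and below, lack of overlap is described for genes that were also called in these data. The share of all genes without overlap is not given. These levels rest on 0, 1, 1 and 4 UMIs in runx1-/- and 149, 207, 175 and 76 UMIs in WT cells. The fitted log2 difference was -6.03 (SE 0.624, adjusted p = 0.00153, edgeR; lower in 4 of 4 runx1-/- libraries). Per library, the ratio of the WT level to the runx1-/- level at the same age was at least 9.89 at 6 dpf, where runx1-/- cells had 0 UMIs and the bound uses a floor of 3 counts per library. At 10 dpf the runx1-/- to WT ratio was 0.00398 (exact 95% interval 1.00e-04 to 0.0225), and at 16 dpf it was 0.0245 in the bloodless (6.13e-04 to 0.141) and 0.0803 in the recovered library (0.0213 to 0.214), intervals that cover counting error only.

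The difference was also present at equal depth. A UMI of itgae.2 was present in 0, 0.0991, 0.240 and 0.649% of HSPC-like cells in these runx1-/- libraries and in 24.2, 33.7, 25.6 and 13.9% in the WT libraries at 2.5, 6, 10 and 16 dpf, where median depth per cell was 5090 to 7547 UMIs in the runx1-/- and 11286 to 14418 in the WT libraries. Thinned to 2000 UMIs per cell, which kept 123, 951, 393 and 569 runx1-/- and 471, 433, 495 and 480 WT cells, the shares were 0, 0, 0 and 0.176% in runx1-/- and 5.52, 4.62, 7.27 and 2.29% in WT cells. In erythroid-like cells, which held 17962 to 28169 UMIs in the median, the unthinned share reached 0.0300% in runx1-/- and 3.30% in WT libraries. The WT shares in HSPC-like cells lay above these. Whether UMIs of itgae.2 in either class came from stray RNA was not tested.

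Values of other genes moved with this comparison, and their part in it was not tested. The HSPC panel holds tcf15, a transcription factor gene, which had 0 to 12.4 CPM in runx1-/- HSPC-like cells and 191 to 1255 in WT ones, while meis1b had 267 to 371 in runx1-/- and 57.4 to 86.0 in WT cells. So the panel genes by which cells entered the class differed between genotypes. Endothelial panel genes summed to 48.3 to 208 in runx1-/- and 6.97 to 27.0 CPM in WT HSPC-like cells, led by ecscr and sox7, with kdrl at or near 0 in both. The epidermis panel gene cldni had 1.12 to 68.0 in runx1-/- and 7.71 to 2782 CPM in WT cells. Macrophage panel genes summed to at most 5.96 in any library and neutrophil panel genes to 2.25 to 49.8 in runx1-/- and 35.6 to 74.2 in WT cells. The itgae.2 log2 difference was -5.38 when cells with any endothelial marker were left out. It was -5.36 when cells with any leukocyte or thrombocyte marker were left out. It was -5.27 when cells with UMIs of both myb and meis1b were taken from HSPC-like cells and cells of no class. These alternatives were chosen after seeing the data, with adjusted p = 0.000613, 0.000849 and 0.00431 in that order (edgeR). The last of them selects on meis1b, which itself differed between genotypes. They show how the itgae.2 difference moved and do not test the part of the genes above.

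**Figure D2:**
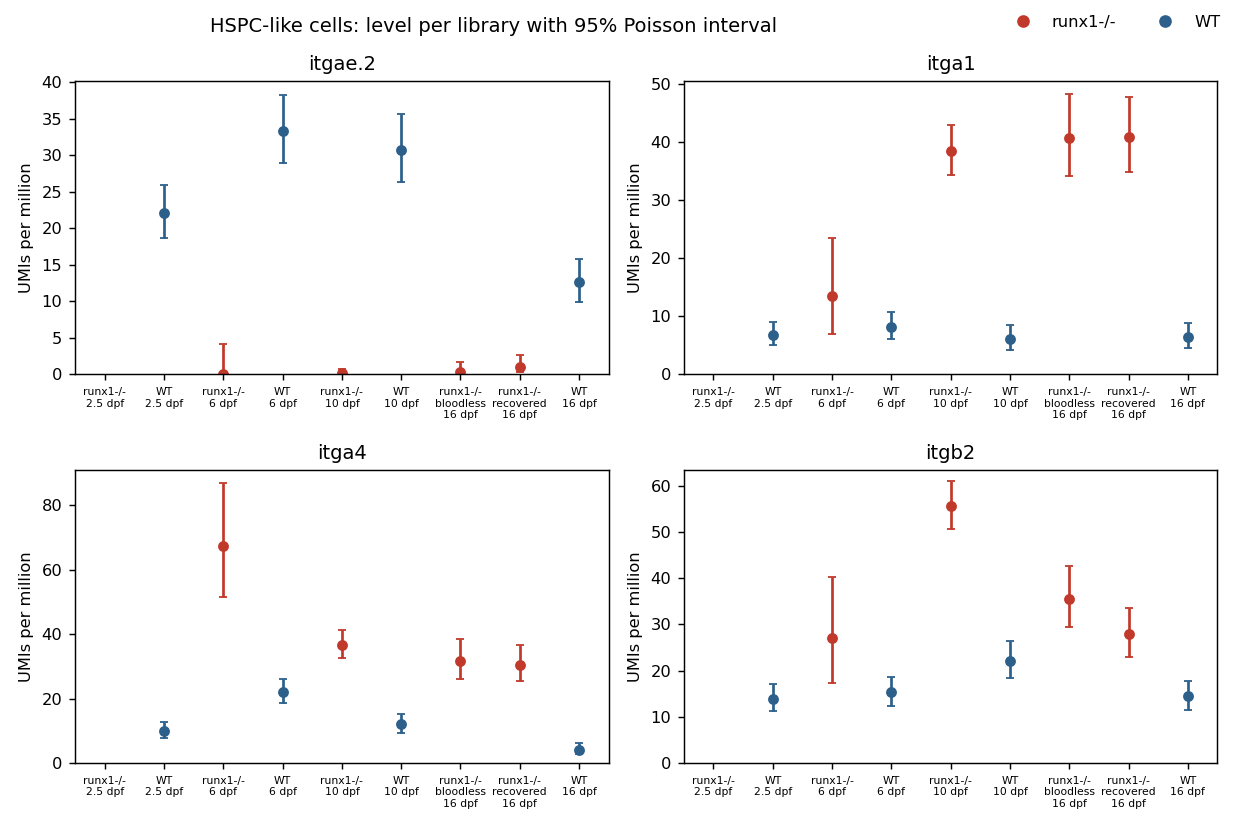
Level (CPM, linear axis from 0) of 4 integrin genes in HSPC-like cells, 1 point per library in red for runx1-/- and blue for WT, with exact 95% Poisson bars for counting error; runx1-/- at 2.5 dpf is blank because it held 12 cells. The itgae.2 points of all runx1-/- libraries lie at or below 1.01, and itga1 exceeds every WT point in all runx1-/- libraries.

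Among the subunits that were higher, itga1 had 13.5, 38.5, 40.8 and 41.0 CPM in the runx1-/- libraries at 6 and 10 dpf, bloodless and recovered, against 6.82, 8.22, 6.14 and 6.47 in WT at 2.5, 6, 10 and 16 dpf. The groups did not overlap, a trait whose share over all genes is not given here. The log2 difference was 1.76 (SE 0.443, adjusted p = 0.0388, edgeR, higher in 4 of 4). The call was lost without the 10 dpf libraries, without those at 16 dpf, without the bloodless library (adjusted p = 0.0847), with the stricter gate and without leukocyte markers (0.0991), all by edgeR. The largest adjusted p among these was 0.235 (edgeR). The itga4 level was 67.5, 36.8, 31.8 and 30.6 in the runx1-/- libraries in that order and 9.93, 22.1, 12.1 and 4.14 in WT, without overlap (log2 difference 1.65, SE 0.327, adjusted p = 0.0155, edgeR). The call was lost without the 10 dpf libraries (adjusted p = 0.0794) and with the looser and stricter gates. The other 3 rest on few UMIs. The itga8 call was lost in 7 of 15 alternatives, among them without 6 dpf, without the bloodless library and without 10 dpf, which gave the largest adjusted p = 0.196 (edgeR). For itga8, a chain that binds matrix proteins with beta 1, there were 82 UMIs in runx1-/- HSPC-like cells at the 3 ages compared and 17 in WT ones (log2 difference 2.16, adjusted p = 0.0280, edgeR). For itga2.3, a collagen receptor chain copy, the sums were 84 UMIs in runx1-/- and 1 in WT cells, and for itga6b, a laminin receptor chain, 98 in runx1-/- and 1 in WT cells. Their fitted log2 differences of 6.11 and 5.48 (adjusted p = 0.00345 and 0.0176, edgeR) depend on the prior count and are no bounds. More itga2.3 was not particular to HSPC-like cells. Erythroid-like cells had 200 UMIs in 5058 runx1-/- cells and 1 in 1384 WT cells, higher in 4 of 5 libraries (adjusted p = 0.0782, edgeR). The sums were 8 in runx1-/- and 0 in WT neutrophil-like cells, and 25 and 0 in macrophage-like cells. The raised members were also counted in endothelial-like cells, which had a level in 4 runx1-/- libraries only. Median levels there were 66.7 CPM for itga1, 32.5 for itga6b, 13.4 for itga4, 12.2 for itga2.3 and 7.30 for itga8. Whether the endothelial panel genes seen in runx1-/- HSPC-like cells go with these calls was not tested. The itga6b call was lost in 2 of 10 alternatives, with the stricter gate (adjusted p = 0.0614) and without leukocyte markers (0.0501, both edgeR). Only these 10 gave a result for itga6b, against 15 for the other members called in HSPC-like cells.

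Other chains did not pass the test. The beta subunit itgb2 had 27.0, 55.6, 35.5 and 27.8 CPM in the runx1-/- HSPC-like cells, against 13.9, 15.3, 22.1 and 14.4 in WT, higher in 4 of 4, but the log2 difference of 0.70 did not pass (adjusted p = 0.126, edgeR). For itgb1b the values were 25.9, 22.9, 11.7 and 9.10 in runx1-/- and 1.63, 5.96, 14.9 and 20.4 in WT, with 2 of 4 libraries higher and a log2 difference of -0.13 (adjusted p = 0.911, edgeR). All alpha subunits together came to 83.5 to 107 CPM in the runx1-/- libraries and 30.2 to 69.3 in WT, and all beta subunits to 47.8 to 100.2 in runx1-/- and 19.3 to 49.3 in WT libraries.

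The itgae.2 pattern differed between blood classes. In neutrophil-like cells it was present in both genotypes, with 13.7, 54.8 and 36.6 CPM in the runx1-/- libraries at 10 dpf, bloodless and recovered, against 63.0, 74.2, 72.0 and 75.7 in WT at 2.5, 6, 10 and 16 dpf. The groups did not overlap, a trait whose share over all genes is not given here. Of 8 members tested in these cells, 2 differed, against 7.74% of 5954 genes: itgae.2 was lower by 1.77 on the log2 scale (SE 0.337, adjusted p = 0.0159, edgeR) and itgb2 higher by 1.44 (SE 0.332, adjusted p = 0.0339, edgeR). Both calls were lost without the recovered library (adjusted p = 0.111 and 0.132). In macrophage-like cells itgae.2 had 0, 87.4 and 61.0 CPM in the runx1-/- libraries at 2.5 dpf, bloodless and recovered, against 58.5, 40.2, 39.2 and 36.9 in WT at 2.5, 6, 10 and 16 dpf. At 2.5 dpf the WT level was at least 8.91 times the runx1-/- one, from 20 UMIs in 25 WT cells and 0 in 37 runx1-/- cells, whereas at 16 dpf the runx1-/- libraries were higher. Erythroid-like cells had at most 1.7 CPM; of 10 members tested 1 differed there, itgae.2, against 3.38% of 10174 genes (-6.21, SE 0.814, adjusted p = 0.0084, edgeR; lost without 10 dpf, adjusted p = 0.0712). It rests on 1 UMI in 5058 runx1-/- cells and 28 in 1384 WT cells, so the gene passed the expression filter only through the WT libraries.

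**Figure D3:**
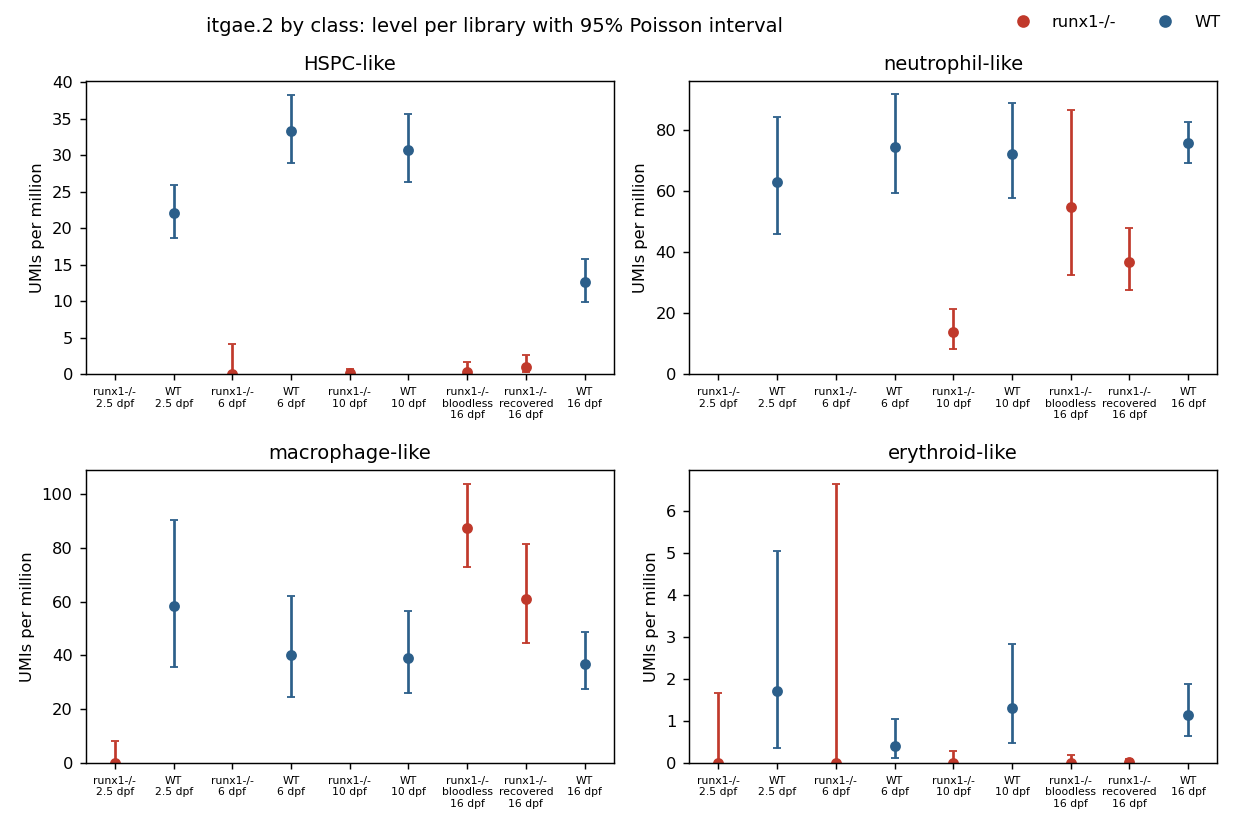
Level of itgae.2 (CPM, linear axis from 0, own scale per panel) in 4 classes, 1 point per library in red for runx1-/- and blue for WT, with exact 95% Poisson bars. In HSPC-like and neutrophil-like cells every runx1-/- point lies below every WT point, and in macrophage-like cells at 16 dpf the runx1-/- points lie higher.

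The itgb2 levels in neutrophil-like cells were 209, 499 and 301 CPM in the runx1-/- libraries at 10 dpf, bloodless and recovered, against 288, 96.1, 103 and 74.0 in WT at 2.5, 6, 10 and 16 dpf. At the ages compared, 10 and 16 dpf, the 3 runx1-/- values lay above the 2 WT ones, a trait whose share over all genes is not given here. The WT 2.5 dpf value lies among the runx1-/- ones, so over all libraries the groups overlapped. In macrophage-like cells itgb2 had 179, 167 and 143 in the runx1-/- libraries at 2.5 dpf, bloodless and recovered, and 152, 70.4, 54.7 and 29.5 in WT at 2.5, 6, 10 and 16 dpf, with 3 of 3 runx1-/- libraries higher than WT of their age and a log2 difference of 1.28 that did not pass (adjusted p = 0.541, edgeR). No member passed in macrophage-like cells (0 of 6, and 0% of 4944 genes; edgeR; 1 member had an unadjusted p below the threshold of 0.05), where the fit had 5 libraries.

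The itga4 gene was compared between classes next. In erythroid-like cells it had 0.454, 36.1, 15.2, 11.3 and 9.62 CPM in the runx1-/- libraries at 2.5, 6 and 10 dpf, bloodless and recovered, against 12.1, 39.9, 42.3 and 12.6 in WT at 2.5, 6, 10 and 16 dpf. All 5 runx1-/- libraries lay below the WT library of their age, with a log2 difference of -1.48 (adjusted p = 0.0818, edgeR) that passed with DESeq2 (adjusted p = 0.00631) and, by edgeR, without the 2.5 dpf libraries (adjusted p = 0.0130). The difference of the genotype effects, HSPC-like minus erythroid-like, was 2.85 on the log2 scale (adjusted p = 0.000152, edgeR).

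**Figure D4:**
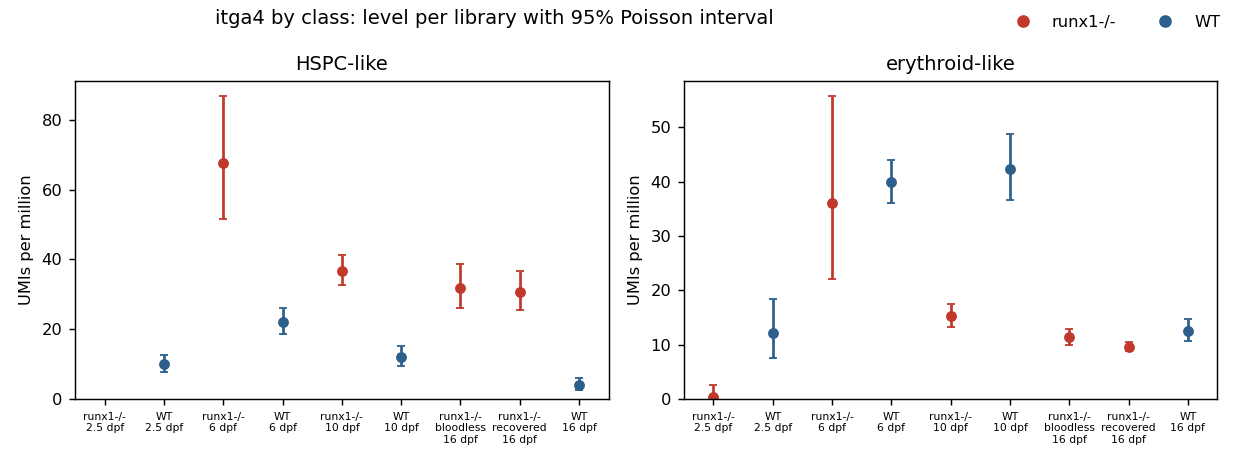
Level of itga4 (CPM, linear axis from 0, own scale per panel) in HSPC-like and erythroid-like cells, 1 point per library in red for runx1-/- and blue for WT, with exact 95% Poisson bars. In HSPC-like cells the runx1-/- points lie above the WT points; in erythroid-like cells each lies below the WT point of its age.

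Of 24 activators and adaptors of integrins found in the files, 15 were tested in HSPC-like cells and 3 differed, 2 higher and 1 lower, where 11.3% of all genes differed, with a median log2 difference of -0.0052 beside -0.0023 over all genes. The parvins, which with integrin-linked kinase (ilk) link integrins to actin, went in opposite directions. The beta parvin gene parvb had 97.9, 101, 157 and 193 CPM in the runx1-/- libraries at 6 and 10 dpf, bloodless and recovered, against 2.67, 1.45, 17.9 and 8.12 in WT at 2.5, 6, 10 and 16 dpf (log2 difference 3.76, SE 0.523, adjusted p = 0.00372, edgeR). The gamma parvin gene parvg, the parvin of blood cells in mammals, had 9.0, 18.7, 21.3 and 17.2 in runx1-/- and 50.3, 32.1, 64.7 and 36.8 in WT (-1.83, SE 0.264, adjusted p = 0.00439, edgeR). For ilk the values were 59.6, 65.2, 65.2 and 34.1 in runx1-/- and 16.5, 16.4, 28.2 and 12.9 in WT (1.25, SE 0.254, adjusted p = 0.0169, edgeR), a call lost in 4 of 15 alternatives, with the largest adjusted p = 0.0859 without 10 dpf (edgeR) and one of 0.0526 without the bloodless library. None of these 3 sets of values overlapped between genotypes, for genes picked because they were called in the same libraries. The share of all genes without overlap is not given here. In erythroid-like cells the parvins also differed, parvb higher by 2.39 (adjusted p = 0.0168) and parvg lower by 2.33 (adjusted p = 0.0456, edgeR), the only 2 of 15 adaptors called there, where 3.38% of all genes were. In these cells parvb was higher in 5 of 5 runx1-/- libraries and parvg lower in 4 of 5. Both calls were lost without 10 dpf (adjusted p = 0.122 for parvb and 0.223 for parvg), without 16 dpf (0.633 and 0.871), and without the bloodless (0.0768 and 0.200) or the recovered library (0.0708 and 0.166), all by edgeR. That of parvg was also lost without 6 dpf (adjusted p = 0.0893, edgeR). The parvins differed between blood classes too. On the log2 scale parvb was higher in erythroid-like (3.55) and HSPC-like cells (1.98) and lower in neutrophil-like (-3.67) and macrophage-like cells (-1.86). The parvg level was lower in erythroid-like (-4.45) and higher in neutrophil-like (2.86) and macrophage-like cells (1.90). Whether the make-up of the HSPC-like class had a part in the genotype differences was not tested. Talin (tln1) and the blood kindlin (fermt3b), which activate integrins, did not pass. In HSPC-like cells tln1 had 166 to 208 in runx1-/- and 74.0 to 144 CPM in WT, and fermt3b 98.8 to 142 in runx1-/- and 58.4 to 163 in WT.

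**Figure D5:**
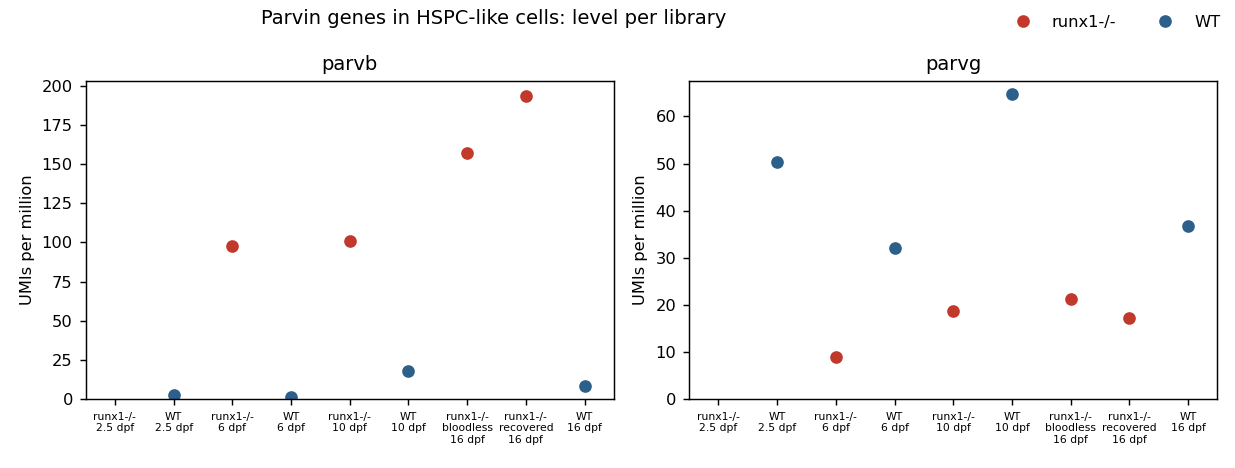
Level of parvb and parvg (CPM, linear axis from 0) in HSPC-like cells, 1 point per library in red for runx1-/- and blue for WT. The parvb points of the 4 runx1-/- libraries lie above, and the parvg points below, all WT points.

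Of 15 ligand genes found, 2 were tested in HSPC-like cells and 1 differed, where 11.3% of all genes did: the laminin beta 1 gene lamb1a, a matrix component, had 261 UMIs in runx1-/- and 8 in WT cells at the 3 ages (log2 difference 4.89, adjusted p = 0.00164, edgeR). The lamb1a gene passed the expression filter only through the runx1-/- libraries. In neutrophil-like cells the osteopontin gene spp1 had 292 UMIs in the runx1-/- 10 dpf library, 174 in the recovered library and 0 in the bloodless and all 4 WT libraries. It was not particular to these cells. Macrophage-like cells had 518 UMIs of spp1 in the bloodless, 50 in the recovered and 1 in the runx1-/- 2.5 dpf library, and 0 in all 4 WT libraries. HSPC-like cells had 145 in the runx1-/- 10 dpf library and 1 to 19 in the other libraries with a level.

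Summed over all cells, where the share of each class and the level per cell cannot be told apart, 2 of 29 members differed, against 1.18% of 18215 genes: itgae.2 was lower by 4.99 on the log2 scale (adjusted p = 0.0305, edgeR) and itga6b higher by 1.78 (adjusted p = 0.0339, edgeR), each in 5 of 5 runx1-/- libraries. By edgeR, the itgae.2 call was lost without 10 dpf (adjusted p = 0.0566) and without the bloodless (0.119) or recovered library (0.0561). The itga6b call was lost without any 1 of the 4 ages (0.0551 to 0.129) or the bloodless library (0.121, edgeR). Direct tests of whether the effect of genotype differed between HSPC-like cells and another class called 2 of 16 members against erythroid-like cells (12.7% of all genes), 2 of 16 against neutrophil-like cells (3.54%) and 3 of 13 against macrophage-like cells (8.19%), the last with 1 WT library, assumed to vary like the 2 runx1-/- ones. Outside blood, epidermis-like cells had 0 of 12 members called, against 0.624% of 6411 genes (edgeR; 2 members had an unadjusted p below the threshold of 0.05). The itga6b UMIs lay mostly in epidermis-like cells (75.2%), and itgb4, its partner in hemidesmosomes, had 90.5% of its UMIs there.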

How the data were processed

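The deposited files hold raw UMI counts for each gene in each barcode, as whole numbers, from the Chromium Single Cell 3' kit, per the labels' protocols. Per the submitters' processing notes, Cell Ranger 2.0.2 and build GRCz10 were used, whereas version 3.1.0 stands in 5 of the 9 matrices per the file headers. The 2.5 dpf libraries list 26586 genes and the later ones 26573; genes were matched by identifier, and 24201 shared ones were used, so that 1 identifier named itgb1b in the later lists carries another name in the first. Barcodes needed 500 UMIs, 200 genes and at most 20% mitochondrial UMIs, which 29994 of 30917 met, and the cells with the highest Scrublet scores (a share that grew with library size, 1119 in all) were removed as likely doublets; the caller's own threshold marked 236.

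Counts were summed per library and marker-gated class, and tested with edgeR 4.0.16 (TMM, filterByExpr, quasi-likelihood test, Benjamini-Hochberg over all genes) with terms for age and genotype, or for library and class. DESeq2 1.42.0, other filters and gates, and leaving out each age or a 16 dpf library were alternatives. Because no group has a second library, p-values measure the spread between ages and between the bloodless and recovered states, which share 1 WT library at 16 dpf, and nothing says how many animals lie behind a library. Poisson, binomial and ratio intervals are exact at 95% and cover counting error only. On simulated counts of 10481 genes for the HSPC-like genotype comparison, 175 of 200 changed genes were recovered, with 4 false calls. The changes were all of the same size (median fitted log2 difference 2.05 for genes set higher). They were set only in genes with higher mean counts, with a fixed spread and no effect of age. So the recovery does not carry over to members with few UMIs. The members, marker panels and gene lists were chosen with earlier results of these data known. Members with a median level of at least 20 CPM in a blood class, or called in a genotype comparison, are described singly.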

Additional observations from a re-analysis of the deposited data

Results flagged for a closer look

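In 4 cases the effect of genotype differed between HSPC-like cells and erythroid-like or neutrophil-like cells by a direct test of that difference. The fit had library, class and class-by-genotype terms and was chosen after seeing the data. Against macrophage-like cells, with 1 WT library, effect sizes alone are given for 3 genes. All values are log2 effects in HSPC-like cells minus those in the other class, from edgeR's quasi-likelihood test.

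Against erythroid-like cells (7 libraries; 2 of 16 members, and 12.7% of all genes, passed), itga4 differed by 2.85 (SE 0.293, adjusted p = 0.000152) and the beta 1 copy itgb1b.2 by 2.17 (SE 0.671, adjusted p = 0.0493). Against neutrophil-like cells (5 libraries; 2 of 16 members, and 3.54% of all genes), itgae.2 differed by -4.02 (SE 0.654, adjusted p = 0.00211) and itga1 by 2.46 (SE 0.491, adjusted p = 0.00917). Against macrophage-like cells only the 3 libraries at 16 dpf could enter, the bloodless and recovered runx1-/- libraries and 1 WT library, with 1 residual degree of freedom. The lone WT library is assumed to vary like the runx1-/- ones, so the 3 differences are given as values without a p: -5.09 for itgae.2 (SE 0.623), -2.25 for itgb1b (SE 0.663) and -1.29 for itgb2 (SE 0.445).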

How the results depend on the processing

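Counts of calls moved as follows, a gene counting once in each comparison that called it. The 4 class comparisons gave 42 calls among 22 members, and leaving out an age or a 16 dpf library gave 23 (without 16 dpf) to 39. Within classes there were 9 calls between genotypes, on 7 genes since itgae.2 was called in HSPC-like, erythroid-like and neutrophil-like cells, 5 with the stricter gate, and 2 (without 10 dpf, which leaves 5 classes) to 13 (without 2.5 dpf) when an age or library was left out. Over all cells 2 were called, 4 with DESeq2, and 0 to 2 when an age or library was left out; the 0 came without 10 dpf and without the bloodless library. The cause was not tested, beyond the smaller number of libraries. Among named genes, the itgae.2 difference in HSPC-like cells kept its direction and its call under all 16 settings (-8.06 to -5.15), as did itga2.3, parvb, parvg and lamb1a. The itgb1b.2 difference between HSPC-like and erythroid-like effects was lost without 6, 10 or 16 dpf or the bloodless library (highest adjusted p = 0.304, edgeR), whereas the itga4 difference was kept in each leave-out. Each age has 1 library per genotype and state, so depth and few cells limit members under about 20 UMIs. Genotypes could not be paired by library, because no group has a second library. Matching between genotypes was by age alone, through the term for age. The comparisons between classes were paired within library, through the library term.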

Other observations

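Outside the blood classes, the sorted cells held epidermis-like cells, in which itga6b and itgb4 stood out. Basal and surface skin cells were not told apart. There itga6b, of the hemidesmosome pair, had 90.1, 144, 426 and 627 CPM in the runx1-/- libraries at 2.5 and 6 dpf, bloodless and recovered, against 72.8, 92.3 and 195 in WT at 2.5, 6 and 16 dpf. Its partner itgb4 had 144, 344, 651 and 1022 CPM in the same runx1-/- libraries, against 165, 198 and 232 in the same WT libraries. Neither difference passed the test. Endothelial-like cells reached 20 per library in 4 runx1-/- libraries only, where itga1 had 23.6 to 70.2 CPM and itga6b 4.72 to 51.1. In cartilage-like cells at 2.5 dpf, the collagen receptor chain itga10 had 52.6 CPM in runx1-/- and 99.9 in WT. Germ-like cells at 16 dpf, which carried 89.6% of all itga11b UMIs, were led by itgb1b.2, at 21.7 in the bloodless, 18.2 in the recovered and 23.1 in the WT library.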
